A study of Mus musculus with 24 samples.

Results

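The 10 genes described here belong to the unfolded protein response (UPR) and to endoplasmic reticulum-associated degradation (ERAD), and were followed in primary mouse microglia, the resident macrophages of the brain, after the lysosomal proton pump was blocked. They were taken by symbol from the count table: Ern1, Atf6, Xbp1, Dnajb9, Sdf2l1, Creld2, Sel1l, Syvn1, Herpud1 and Edem1. These are 10 of 56980 genes in the table, and all 10 were among the 12648 that passed the filter on low counts. The treated groups were wild-type microglia exposed to bafilomycin A1 (BafA1, 50 nM), a drug that stops the V-ATPase from acidifying lysosomes, for 1, 7, 14 or 22 h. Their controls were wild-type microglia given the vehicle DMSO for the same times. Each of the 8 groups had 3 libraries, which the series calls biological replicates without naming litters or flasks, so the p-values here reflect only how far these cultures scatter. The cells came from cortex and hippocampus of newborn mice and were shaken off mixed glial cultures, so other glia may be carried over.

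Microglial markers were abundant in DMSO and fell with BafA1. Cx3cr1, a chemokine receptor of microglia, averaged 257 ± 56.0 CPM (read counts scaled to an equal library size) with BafA1 at 22 h and 2238 ± 418 CPM in DMSO, and Aif1 averaged 41.9 ± 8.25 CPM with BafA1 and 262 ± 57.1 CPM in DMSO (SD, n = 3). Of 10 microglial markers 8 fell at 22 h, beside 22% of all genes called lower, a share that holds for the 22 h counts below too. The 10 markers summed to 1747 to 2427 CPM with BafA1 and 4735 to 7001 CPM in DMSO. At 14 h that sum was 3227 to 4456 CPM with BafA1 and 5873 to 7966 CPM in DMSO. Markers of other cells were present and moved too. Of 11 tested oligodendrocyte lineage markers 10 fell at 22 h, and the sum of the 12 listed was 96.7 to 127 CPM with BafA1 and 611 to 752 CPM in DMSO. Already at 7 h 6 of the 11 had fallen, beside 2.57% of all genes. The sum of the 12 was then 369 to 422 CPM with BafA1 and 640 to 704 CPM in DMSO. Of 9 tested astrocyte markers 6 fell at 22 h, and the sum of the 10 listed was 42.1 to 113 CPM with BafA1 and 189 to 339 CPM in DMSO. At that time 2 of 3 tested neuronal markers fell, Map2 and Tubb3, and Stmn2 was not called. The 7 listed summed to 22.6 to 33.6 CPM with BafA1 and 161 to 224 CPM in DMSO. Most of that was Map2, at 13.7 ± 3.20 CPM with BafA1 and 148 ± 31.3 CPM in DMSO. Tubb3 had 9.52 ± 2.04 CPM with BafA1 and 34.0 ± 6.40 CPM in DMSO. Snap25, Syt1, Rbfox3 and Nefl had too few counts to be tested. Of 5 tested markers of fibroblasts and vessels 1 fell, Pecam1 of endothelium (-3.79 ± 0.56), a count near the 22% of all genes. The 9 listed summed to 23.6 to 102 CPM with BafA1 and 27.3 to 125 CPM in DMSO. Of 3 tested border macrophage markers 2 fell, Mrc1 (-2.50 ± 0.23) and Pf4 (-1.70 ± 0.19). The 7 border macrophage markers summed to 413 to 638 CPM with BafA1 and 625 to 722 CPM in DMSO, of which Ms4a7, not called, made up 459 ± 130 CPM with BafA1 and 546 ± 68.4 CPM in DMSO. The markers at 0 in all 3 libraries of a group at 22 h were Cldn5 of vessels with BafA1 and Mog of oligodendrocytes in DMSO. In such bulk samples fewer cells of a type and less RNA per cell cannot be told apart, and the part of these shifts in the results below was not tested. Library totals ran from 1322169 to 4189077 counts. At 14 and 22 h they were 2805274 to 4189077 with BafA1 and 1332093 to 3056773 in DMSO.

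The endoplasmic reticulum (ER) folds secreted and membrane proteins, and the UPR is the signalling that follows when unfolded protein collects there. IRE1, encoded by Ern1, is an ER membrane kinase and RNase that splices the Xbp1 mRNA, from which the transcription factor XBP1 is then made. ATF6 is a membrane-bound factor that is cut in the Golgi to release its active part, and PERK, the other sensor, slows translation and favours ATF4. ERAD passes misfolded proteins back to the cytosol for the proteasome, in mammals largely through the ubiquitin ligase HRD1 and its partner SEL1L.

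The factors of this pathway are known to bind short promoter elements, and 9 of the 10 genes had a promoter in the RefSeq table used here (build GRCm38.p6, 250 bases before to 50 after the start). The ER stress element, CCAAT and CCACG with 9 free bases between them, searched like the others on both strands, was found in Syvn1 and Creld2 and in 0.119% of 32851 promoters of that length. The type II element, ATTGG and CCACG with 1 free base between them, was found in Herpud1 and in 0.0365% of promoters. Herpud1 also held TGATGNAA, an element bound by ATF4 that 3.97% of promoters hold. The element TGACGTGG was in none of the 9 and in 0.676% of all, and CACGTG, the core of the element bound by TFEB, was in Dnajb9 and in 7.15% of all. The first pair of elements share CCACG, and ATTGG is CCAAT read on the opposite strand, but neither element lies within the other. A match is a description of the letters only. Atf6 was not matched in the table. The 3 stretches with ER stress elements are shown because they carry the letters by which ATF6 and XBP1 are known to act. Capitals mark the fixed letters of each motif, and all lie upstream of the start and are written on the gene's strand. The ER stress element of Creld2 and the ATF4 element of Herpud1 match on the opposite strand, so there the capitals show the complement.
Herpud1, chr8:94386307-94386396, plus strand: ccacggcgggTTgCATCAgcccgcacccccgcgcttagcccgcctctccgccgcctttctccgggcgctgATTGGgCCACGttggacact
Syvn1, chr19:6046522-6046575, plus strand: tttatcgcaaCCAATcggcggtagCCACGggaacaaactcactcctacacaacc
Creld2, chr15:88819510-88819599, plus strand: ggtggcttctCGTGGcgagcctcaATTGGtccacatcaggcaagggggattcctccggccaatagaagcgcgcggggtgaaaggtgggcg

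All 10 genes were higher with BafA1 after 22 h, 6 of them already after 14 h, and none was called at 1 or 7 h. With the replicate number as a block, 1 gene was called at 7 h (Edem1) and 7 at 14 h, Sel1l being added. In that fit 7.16% of all genes were called higher at 7 h and 15.8% at 14 h. The calls are those of edgeR's quasi-likelihood test, with p-values adjusted by Benjamini-Hochberg over all 12648 genes and a threshold of 0.05. Over all genes, 0% were called at 1 h, and 4.57% were called higher and 2.57% lower at 7 h, 12.1% higher and 12.1% lower at 14 h, and 17.9% higher and 22% lower at 22 h. The median log2 change of the 10 genes was -0.09, 0.15, 0.61 and 1.17 at the 4 times, beside 0.02, -0.02, -0.05 and -0.06 over all genes tested. At 22 h the 3 BafA1 values lay above the 3 DMSO values for all 10 genes, as for 23.5% of all genes, and at 14 h for 8 genes, as for 20.4% of all. Ern1 and Herpud1 were the genes that overlapped at 14 h.

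**Figure D1:**
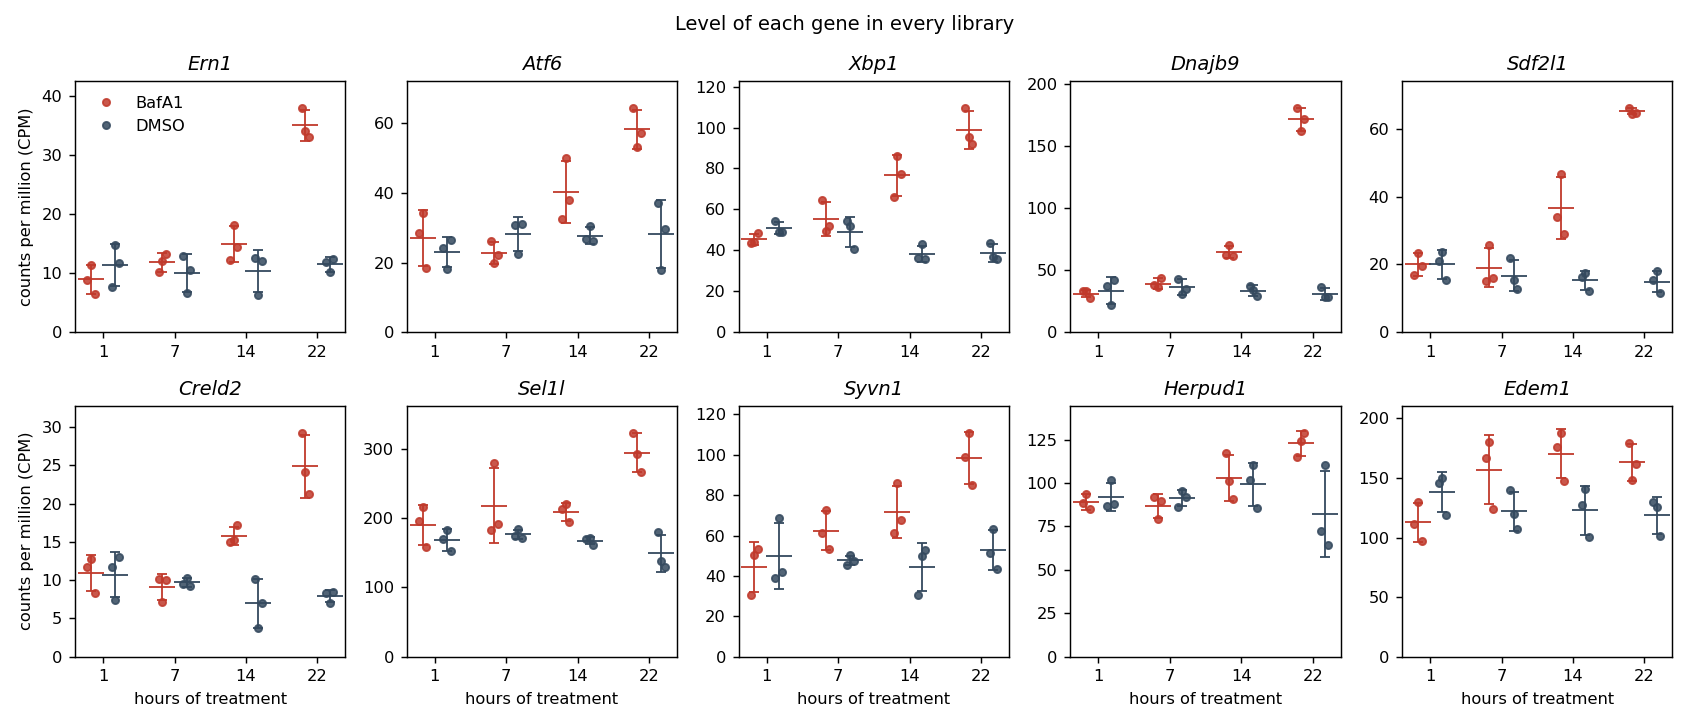
Level of each gene (CPM, linear axis from 0) in every library against hours of treatment, BafA1 left of DMSO at each time; points are libraries, bars the mean ± SD of 3. The groups overlap at 1 h for every gene but Xbp1 and lie apart for all 10 genes at 22 h, where Dnajb9 averaged 171 CPM with BafA1 and 30.9 CPM in DMSO.

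Of the sensors, Ern1 stood at 38.0, 34.1 and 33.0 CPM with BafA1 at 22 h, against 11.8, 10.1 and 12.4 CPM in DMSO. The lowest BafA1 library was thus well above the highest DMSO library, and the log2 change was 1.59 ± 0.28 (SE; adjusted p = 5.42e-05). At 14 h Ern1 had 12.2, 18.2 and 14.5 CPM with BafA1 and 12.6, 6.2 and 12.1 CPM in DMSO. Those groups overlapped and the change of 0.54 ± 0.28 was not called (adjusted p = 0.177).

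Atf6 had 64.4, 53.3 and 57.3 CPM with BafA1 at 22 h, against 37.1, 17.9 and 29.7 CPM in DMSO. Its DMSO libraries spread widely, and the change was 1.00 ± 0.23 (adjusted p = 0.00125). At 14 h it had 32.6, 49.9 and 38.1 CPM with BafA1 and 26.8, 30.4 and 26.1 CPM in DMSO. Here the groups did not overlap, but the change of 0.54 ± 0.23 missed the threshold (adjusted p = 0.0968; 0.0385 in a fit of the 6 libraries of that time).

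Xbp1 was called at both late times. With BafA1 it had 66.3, 86.3 and 77.4 CPM at 14 h, against 36.4, 42.9 and 35.6 CPM in DMSO (log2 change 1.00 ± 0.15, adjusted p = 2.26e-05). At 22 h the values were 109.6, 95.4 and 91.8 CPM with BafA1 and 43.6, 36.6 and 35.9 CPM in DMSO (1.34 ± 0.16, adjusted p = 1.78e-07). All BafA1 libraries were above all DMSO libraries at both times. The 3′ tags count both forms of the Xbp1 mRNA together, so these values say nothing of splicing.

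The 3 highest estimates at 22 h were those of genes for proteins that work in the ER lumen. The lowest of these, Creld2, was not apart from the sensor Ern1. Over the alternative fits Creld2 ran from 1.49 to 1.75 and Ern1 from 1.53 to 1.72. Dnajb9, a BiP co-chaperone that is also known to restrain IRE1, had 180.7, 162.3 and 171.5 CPM with BafA1 at 22 h, against 36.2, 28.0 and 28.4 CPM in DMSO. The groups were far apart (2.46 ± 0.19, 95% interval 2.07 to 2.84, adjusted p = 1.72e-10). At 14 h Dnajb9 had 61.9, 70.6 and 61.6 CPM with BafA1 and 37.4, 33.7 and 29.0 CPM in DMSO (0.96 ± 0.18, adjusted p = 0.000308).

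Sdf2l1, an ER luminal protein of a chaperone complex with DNAJB11, had 66.2, 64.5 and 64.8 CPM with BafA1 at 22 h, against 15.4, 17.9 and 11.5 CPM in DMSO. The BafA1 libraries differed little among themselves, and the change was 2.14 ± 0.25 (adjusted p = 1.85e-07). At 14 h it had 34.0, 46.7 and 28.9 CPM with BafA1 and 16.2, 17.5 and 12.1 CPM in DMSO (1.27 ± 0.25, adjusted p = 0.000351). Creld2, an ER-resident protein induced by ER stress, had 29.3, 24 and 21.2 CPM with BafA1 at 22 h and 8.3, 7.0 and 8.4 CPM in DMSO (1.63 ± 0.28, adjusted p = 4.31e-05). At 14 h its groups were also apart, with 15, 15.2 and 17.2 CPM with BafA1 and 10.1, 3.7 and 7.0 CPM in DMSO (1.20 ± 0.28, adjusted p = 0.00251).

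The log2 changes of the 4 ERAD genes at 22 h ran from 0.46 to 0.98. Sel1l, the adaptor of the HRD1 ligase, had 323.6, 293.0 and 266.9 CPM with BafA1 at 22 h, against 180.0, 137.9 and 129.5 CPM in DMSO (0.98 ± 0.15, adjusted p = 1.54e-05). At 14 h it had 212.7, 220.3 and 195.1 CPM with BafA1 and 169.8, 170.8 and 162.0 CPM in DMSO. Those groups did not overlap, and the change of 0.32 ± 0.15 was not called (adjusted p = 0.129), but was with the replicate number as a block (adjusted p = 0.0401, beside 15.8% of all genes called higher) and in a fit of the 6 libraries of that time (0.0386).

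Syvn1, which encodes HRD1 itself, had 98.8, 111.0 and 85.1 CPM with BafA1 at 22 h, against 51.6, 63.1 and 43.5 CPM in DMSO (0.91 ± 0.23, adjusted p = 0.00244). At 14 h it had 61.5, 86.0 and 67.8 CPM with BafA1 and 30.8, 50.0 and 52.8 CPM in DMSO (0.68 ± 0.23, adjusted p = 0.0309). The lowest BafA1 library was above the highest DMSO library at both times. The 14 h call was lost when BafA1 14 h replicate 2 (adjusted p = 0.162) or DMSO 14 h replicate 1 (0.168) was dropped, and in libraries thinned to equal depth (0.179).

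Herpud1, a membrane scaffold of the ERAD complex, had its groups overlapping at 14 h, with 117.2, 100.9 and 91.1 CPM with BafA1 and 101.6, 110.4 and 85.9 CPM in DMSO (0.06 ± 0.15, 95% interval -0.26 to 0.37, adjusted p = 0.835). At 22 h it had 115.2, 124.2 and 129.1 CPM with BafA1 and 72.4, 110.6 and 64.3 CPM in DMSO. One DMSO library thus came close to the BafA1 group, and the change was 0.60 ± 0.16 (95% interval 0.27 to 0.92, adjusted p = 0.00371).

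Edem1, a lectin that hands misfolded glycoproteins to ERAD, had 179.4, 148.3 and 161.5 CPM with BafA1 at 22 h, against 129.7, 125.4 and 101.1 CPM in DMSO (0.46 ± 0.16, adjusted p = 0.0287). At 14 h it had 176.0, 188.1 and 147.4 CPM with BafA1 and 127.4, 140.4 and 100.6 CPM in DMSO (0.48 ± 0.16, adjusted p = 0.0343). The BafA1 group was the higher at both times, by a small margin. The 14 h call was lost when any of 4 libraries of that time was dropped, BafA1 replicate 1 (adjusted p = 0.0862), BafA1 replicate 2 (0.145), DMSO replicate 1 (0.0601) and DMSO replicate 3 (0.146), and in thinned libraries (0.0845). The 22 h call was lost when BafA1 replicate 1 (0.112), BafA1 replicate 3 (0.0526) or DMSO replicate 3 (0.0896) of that time was dropped, and in thinned libraries (0.0932).

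**Figure D2:**
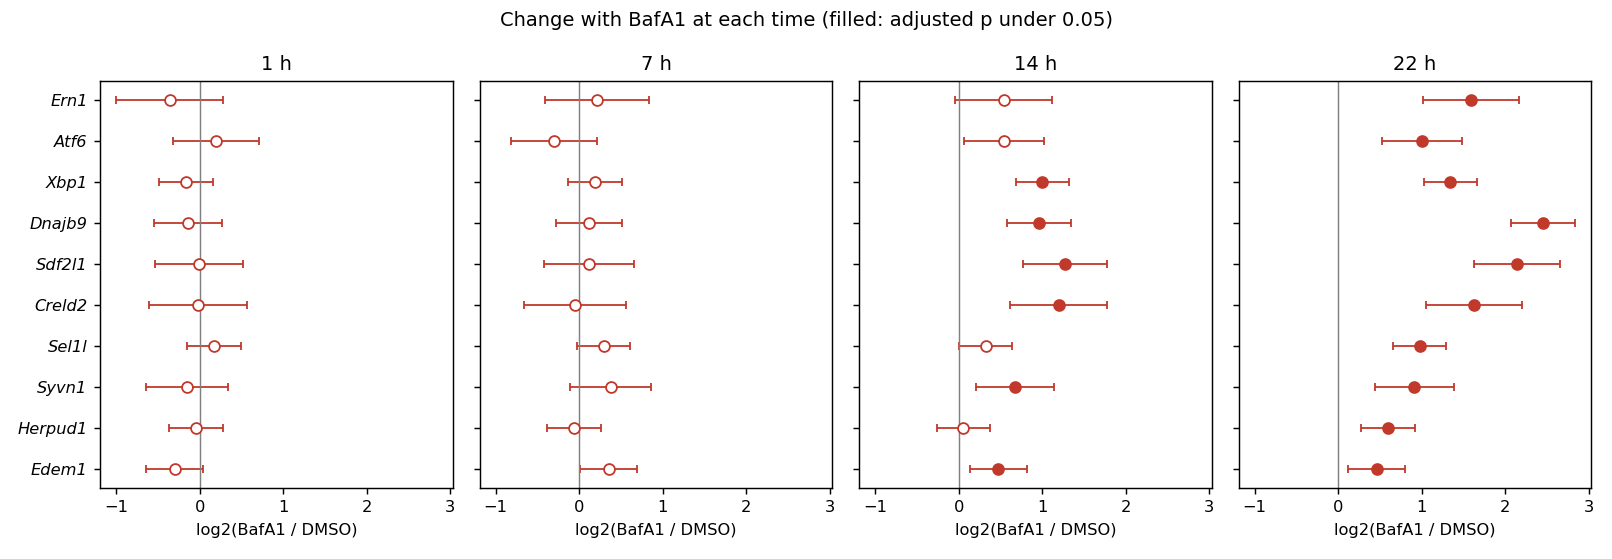
Log2 change with BafA1 against DMSO for each gene at 1, 7, 14 and 22 h, with 95% intervals; filled points were called. No point is filled at 1 or 7 h, 6 are at 14 h and 10 at 22 h, from 0.46 for Edem1 to 2.46 for Dnajb9.

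The first hours gave no call among the 10 genes. At 1 h the log2 changes ran from -0.36 for Ern1 to 0.19 for Atf6, and none of the 10 genes passed an unadjusted p of 0.05 in edgeR, limma-voom or DESeq2. Xbp1 had 43.3, 44.2 and 48.5 CPM with BafA1 and 54.3, 49.1 and 49.0 CPM in DMSO at 1 h, with no overlap, as for 3.5% of all genes that were lower (-0.16, edgeR adjusted p = 1). The edgeR test called 0 of all 12648 genes there, with 380 at an unadjusted p under 0.05. At 7 h the changes ran from -0.30 for Atf6 to 0.38 for Syvn1. The 3 BafA1 libraries of Syvn1 lay above those in DMSO at 7 h, as for 11.6% of all genes, without a call (adjusted p = 0.427). Edem1, at 167.1, 180.0 and 124.1 CPM with BafA1 and 139.6, 119.5 and 107.2 CPM in DMSO at 7 h, was at 0.35 ± 0.17 (adjusted p = 0.247). With the replicate number as a block it was called there (0.35, adjusted p = 0.0430), beside 7.16% of all genes called higher in that fit.

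Whether the BafA1 effect itself differed between times was tested in the same fit. By an F test over the 3 differences between successive times, 8 of the 10 genes were called, beside 21.2% of all genes. With the replicate block all 10 were called, beside 32.8% of all genes. The smallest adjusted p was that of Dnajb9 (2.30e-07), followed by Xbp1 (2.99e-05) and Sdf2l1 (0.000116). Herpud1 (adjusted p = 0.0797) and Syvn1 (0.0854) were not called, and both non-calls turned with the settings. Herpud1 was called with the block (0.0217), by limma-voom (0.0321), by DESeq2 (0.0359) and without DMSO replicate 3 of 14 h (0.0499) or DMSO replicate 2 of 22 h (0.00385). Syvn1 was called with the block (0.0114), with no filter on low counts (0.0093) and without BafA1 replicate 3 of 1 h (0.0440). Dropping single libraries took Atf6 (adjusted p = 0.0337) past the threshold in 8 cases: at 7 h BafA1 replicates 2 (0.0685) and 3 (0.0564) and DMSO replicates 1 (0.0774) and 3 (0.0648), and at 22 h BafA1 replicates 1 (0.0776) and 3 (0.0523) and DMSO replicates 2 (0.0699) and 3 (0.0566). For Sel1l (0.0264) they were 4 libraries of 22 h, BafA1 replicates 1 (0.0943) and 2 (0.0548) and DMSO replicates 2 (0.0760) and 3 (0.0806). For Edem1 (0.0413) they were 10, at 1 h BafA1 replicates 1 (0.0547) and 3 (0.0986) and DMSO replicates 1 (0.113) and 2 (0.104), at 7 h BafA1 replicate 1 (0.0510) and DMSO replicate 2 (0.0528), at 14 h BafA1 replicates 1 (0.0588) and 2 (0.0641), and at 22 h BafA1 replicates 1 (0.0648) and 3 (0.0545). Thinned libraries gave 0.117 for Edem1.

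Between 14 and 22 h the effect on Dnajb9 grew by a log2 difference of 1.49 ± 0.26 (edgeR adjusted p = 0.00259), the 1 gene of the 10 called for that step, beside 0.419% of all genes called higher. With the block Sel1l was called too (0.65, adjusted p = 0.0179), beside 1.81% of all genes called higher in that fit. Without DMSO replicate 1 of 22 h Sel1l was also called (0.0399), and without DMSO replicate 2 of 22 h Herpud1 was (0.0432). Between 7 and 14 h the call was Xbp1 (0.82 ± 0.22, adjusted p = 0.0468), beside 0.735% of all genes called higher. Both groups of Xbp1 moved in that step. With BafA1 the mean went from 55.4 to 76.7 CPM, and in DMSO from 48.9 to 38.3 CPM. The Xbp1 call ended with no filter on low counts (adjusted p = 0.106), in thinned libraries (0.141) and in 17 of 24 fits that left out 1 library (0.0522 to 0.148). The 7 libraries whose loss left it in place were BafA1 replicates 1 and 3 of 1 h, BafA1 replicate 1 and DMSO replicate 3 of 7 h, BafA1 replicate 1 of 14 h and DMSO replicates 1 and 3 of 22 h. With the block 4 genes were called for that step, Dnajb9 (0.85, adjusted p = 0.0305), Sdf2l1 (1.14, 0.0182) and Creld2 (1.28, 0.0495) joining Xbp1, beside 2.83% of all genes called higher in that fit. Dnajb9 was also called without DMSO replicate 2 of 1 h (0.0465) and Creld2 without DMSO replicate 1 of 14 h (0.0496). Between 1 and 7 h none was called, beside 1.57% of all genes higher, and with the block 1 was, Edem1 (0.65, adjusted p = 0.0131), beside 3.38% of all genes.

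**Figure D3:**
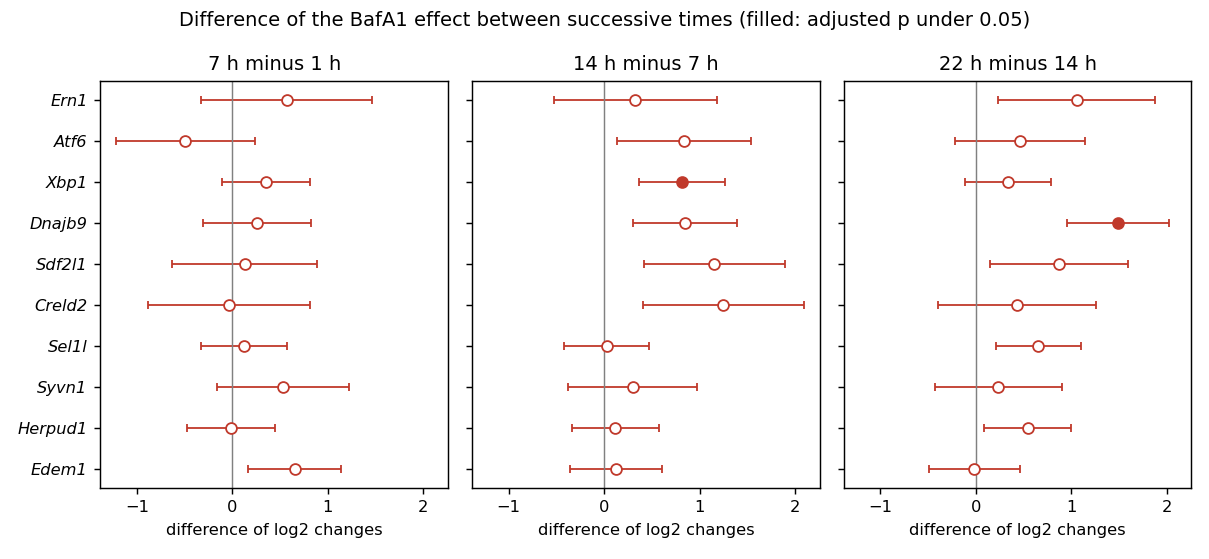
Difference of the BafA1 effect (log2) between successive times for each gene, with 95% intervals; filled points were called. Xbp1 is filled for 14 h minus 7 h (0.82) and Dnajb9 for 22 h minus 14 h (1.49), while Edem1 lies near 0 in both of these steps.

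The vehicle cultures themselves gave no call among the 10 genes. Against DMSO at 1 h, 0 of the 10 were called in DMSO at 7, 14 or 22 h by edgeR, limma-voom or DESeq2, beside 7.91e-03%, 0.15% and 0.403% of all genes by edgeR. At an unadjusted p under 0.05 there were 0, 2 and 1 of the 10 by each of these tools. The 3 comparisons share the 1 h libraries. Xbp1 was at -0.41 ± 0.16 at 14 h and -0.38 ± 0.16 at 22 h, with 36.4 to 42.9 and 35.9 to 43.6 CPM, against 49.0 to 54.3 CPM at 1 h. Neither group overlapped that of 1 h, as for 4.78% of all genes that were lower at 14 h and 5.37% at 22 h, and neither change was called (edgeR adjusted p = 0.903 and 0.518).

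The rest of the pathway was read from lists of genes that are not among the 10. Of 34 other ERAD genes 33 were tested (Derl3 had too few counts), of which 9 rose and 1 fell at 14 h, and 19 rose and 1 fell at 22 h (medians 0.38 and 0.51). Over all genes 12.1% rose and 12.1% fell at 14 h, and 17.9% rose and 22% fell at 22 h. Edem2, a mannosidase of the same family as Edem1, rose to 49.5 ± 9.93 CPM with BafA1 at 22 h, against 15.6 ± 5.13 CPM in DMSO (1.67 ± 0.25). Selenos (1.32 ± 0.13) and Derl1 (1.25 ± 0.16), membrane proteins of the export channel and its recruitment of the ATPase p97, rose as well. The gene that fell was Svip, an inhibitor of ERAD that binds p97 (-1.40 ± 0.36 at 22 h).

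ER chaperones and disulfide isomerases rose in 12 of 21 cases at 14 h and 15 at 22 h, with none lower (medians 0.58 and 0.92). Of all genes 12.1% rose at 14 h and 17.9% at 22 h. Hspa5, which encodes BiP, was the 1 gene of that list called at 7 h without the replicate block (0.46 ± 0.11), beside 4.57% of all genes higher. It reached 2602 ± 198 CPM with BafA1 at 22 h, against 560 ± 39.8 CPM in DMSO (2.22 ± 0.11). Without a filter on low counts it was not called at 7 h. Genes of ER import and transport rose in 9 of 22 tested cases (Kdelr3 was not tested) at 14 h and 17 at 22 h, with none lower (medians 0.29 and 0.79). The shares of all genes that rose, 12.1% and 17.9%, stand beside these counts too. Sec24d, a coat protein of vesicles leaving the ER, was at 1.61 ± 0.13 at 22 h, and Srpr, the receptor of the signal recognition particle, at 1.52 ± 0.17.

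Of 12 tested among 15 other UPR signalling genes (Ern2, Creb3l3 and Creb3l4 had too few counts) 1 rose at 14 h, and 3 rose and 1 fell at 22 h (medians 0.34 and 0.37). Over all genes 12.1% rose at 14 h, and 17.9% rose and 22% fell at 22 h, so these counts lie near the background. With the block 3 of the 12 were called at 14 h and 7 at 22 h, beside 4166 and 5980 of all 12648 genes called in either direction. Mbtps2, one of the proteases that cut ATF6, rose at both times (0.58 ± 0.21 and 0.59 ± 0.21). At 14 h that call was the list's only one, and the list's count ran from 0 to 2 over fits that each left out 1 library. Rtcb, the ligase that joins the Xbp1 exons, fell at 22 h (-0.53 ± 0.15), and Wfs1, an ER membrane protein, rose (2.04 ± 0.48). Of 5 tested among 8 mRNAs known as targets of IRE1-dependent decay, Pmp22 and Hgsnat rose at 7, 14 and 22 h and Sparc fell at 22 h (-0.73 ± 0.28). The groups of Sparc overlapped there, at 197 ± 55.2 CPM with BafA1 and 327 ± 109 CPM in DMSO (edgeR adjusted p = 0.0432). Of all genes 4.57% rose at 7 h, 12.1% at 14 h and 17.9% at 22 h, when 22% fell. Hgsnat is also a lysosomal enzyme, and the list's median was 0.26, -0.26 and -0.21 at those times.

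The list for the PERK and ATF4 branch holds Atf4 and genes downstream of it. Other kinases of the integrated stress response are known to drive the same genes, and the activity of PERK was not measured. At 7 h 3 of the 8 genes rose, beside 4.57% of all genes. Chac1 rose by 2.42 ± 0.54 (edgeR adjusted p = 0.00446), at 6.41 ± 1.20 CPM with BafA1 and 1.11 ± 0.57 CPM in DMSO. That DMSO level is near 3 counts per library, which correspond there to 0.941 to 1.43 CPM. Atf3 rose by 1.67 ± 0.16 and Atf4 by 1.44 ± 0.19 (edgeR adjusted p = 1.34e-07 and 9.03e-06). The difference between the genes of this list and the 10 UPR and ERAD genes at 7 h was not tested. All 8 rose at 14 and 22 h (medians 2.34 and 2.99), beside 12.1% and 17.9% of all genes. The list was led by Trib3, a pseudokinase induced by ATF4 and CHOP, at 3.44 ± 0.40 and 4.62 ± 0.42. With the block 7 of the 8 were called at 7 h. In that fit 1555 of all 12648 genes were called in either direction, and 7.16% were called higher. With DESeq2 or with no filter on low counts 5 of the 8 were called at 7 h. The shares of all genes called in those fits are not given here, so these counts cannot be set against them.

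**Figure D4:**
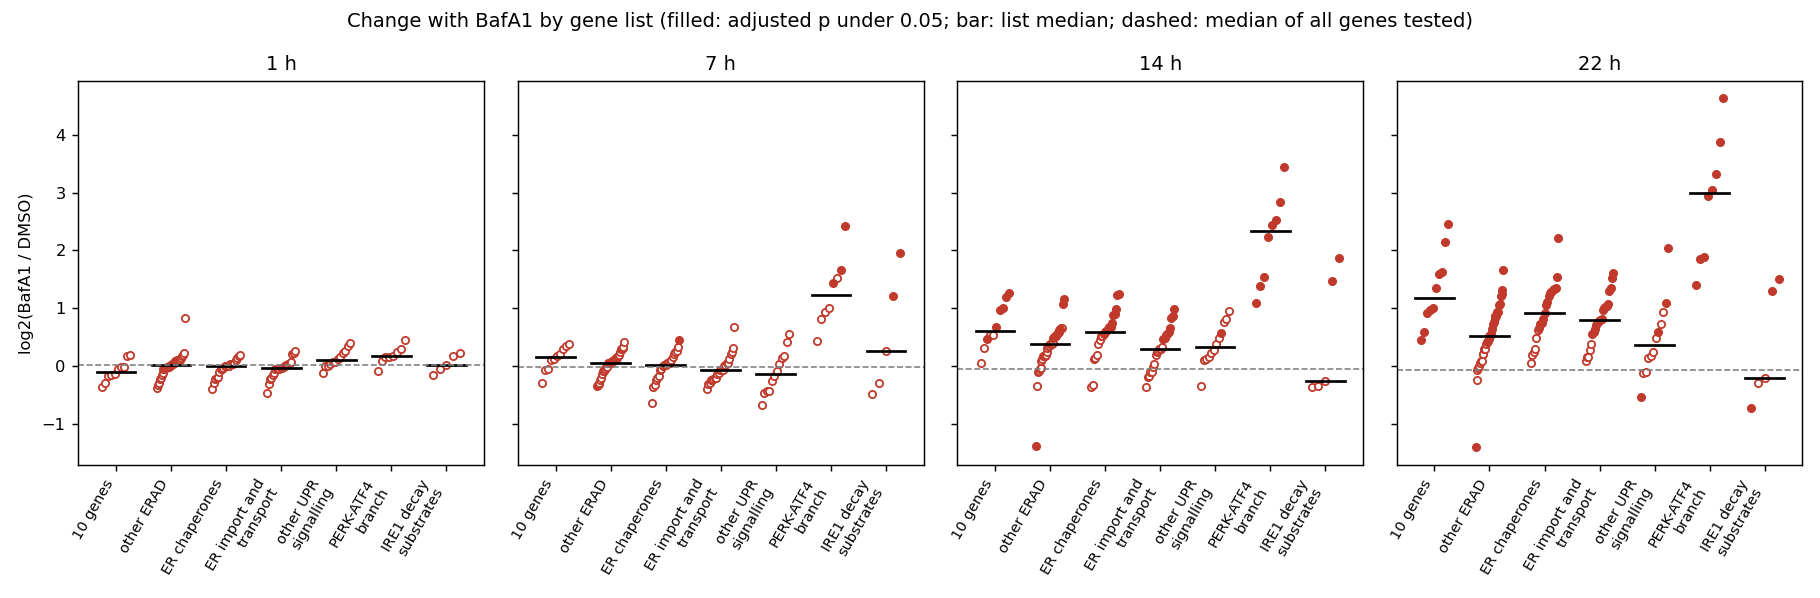
Log2 change with BafA1 against DMSO at 1, 7, 14 and 22 h for the 10 genes and 6 further lists; each point is a gene, filled where called, bars are list medians and the dashed line is the median of all genes tested. The median of the PERK and ATF4 branch is 1.23 at 7 h, when that of the 10 genes is 0.15, and at 22 h they are 2.99 and 1.17.

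Over the means of the 8 groups, the 10 genes followed each other to different degrees, as a description over groups that share treatment and time. The pairwise Pearson correlation of log2 CPM was highest for Ern1 with Dnajb9 (0.97) and Sdf2l1 with Creld2 (0.97) and lowest for Atf6 with Edem1 (0.55). Among 9248 other genes (mean log2 CPM 3 or more), those closest to Ern1 were Manf (0.99), Srp72 (0.99) and Ube2g2 (0.98). Closest to Atf6 were Mgll, Taf15 and Hdlbp (0.99 each), and to Xbp1 Spty2d1, Aimp2 and Vcp (0.99 each). Closest to Herpud1 were Sphk2, Tcp1 and Manbal (0.99, 0.99 and 0.98).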

How the data were processed

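RNA was sequenced as 3′ tags (QuantSeq 3′ FWD with molecular identifiers, 75 bp single-end, per the labels' protocols) in 24 libraries. The authors deposited estimated counts per gene from Salmon on build GRCm39, per the submitters' processing notes, and log2 CPM values. The Salmon version and the annotation release are unstated there. Estimated counts were rounded to whole numbers (37.1% of values above 0 were not whole). The deposited log2 CPM differed from log2 CPM recomputed here by at most 0.00121 and were used only for that check.

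One edgeR 4.0.16 quasi-likelihood fit (R 4.3.3) held all 24 libraries with 8 group coefficients, TMM scaling and the filterByExpr filter, which left out genes with 0.699% of counts. Levels are TMM-scaled CPM, and 3 counts correspond to 0.716 to 2.27 CPM per library. Calls used Benjamini-Hochberg adjusted p under 0.05, and intervals are 95%. Alternatives were limma 3.58.1 (voom), DESeq2 1.42.0, other filters and scaling, thinning to the smallest library, separate fits by time, leaving out each library, and the replicate number as a block.

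Same-numbered BafA1 and DMSO libraries deviated together from their group means in 12 of 12 pairs (r = 0.143 to 0.339), which meets the rule set for pairing. The values reported first nevertheless come from the fit without the block. The check was made within each time, whereas the block gives a replicate number the same effect at all times, which was not checked. Where the block changed a call or moved a count by over 1.5 times, its values are given beside the result or in the closing section. Replicates differed beyond sampling noise (chi-square per degree of freedom 4.06 to 11.4). The 10 genes and the lists were chosen with earlier results of these data known. Named were all 10 genes, up to 4 called genes of each list with the largest change per comparison (the 2 most abundant where fewer than 2 were called), and, for Ern1, Atf6, Xbp1 and Herpud1, the 3 genes of most similar pattern. Of IDs sharing the symbol Ddit3, the one with most counts was used. Promoters came from RefSeq on GRCm38.p6, and no coordinates were converted between builds. The floor of 3 counts covers counting error only.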

Additional observations from a re-analysis of the deposited data

Results flagged for a closer look

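These results stand here because the BafA1 effect was tested to differ between times (edgeR quasi-likelihood, Benjamini-Hochberg adjustment over all genes). Over all times the adjusted p was 0.00616 for Ern1, 0.0337 for Atf6, 2.99e-05 for Xbp1 and 2.30e-07 for Dnajb9. It was 0.0264 for Sel1l, 0.0413 for Edem1, 0.000116 for Sdf2l1 and 0.00357 for Creld2. Over all genes 21.2% were called in that test. Leaving out 1 library ended the call of Atf6 in 8 fits, of Sel1l in 4 and of Edem1 in 10. Between single steps, the effect on Xbp1 was larger at 14 h than at 7 h by 0.82 (log2), with all 3 BafA1 libraries above the DMSO libraries at 14 h and the groups overlapping at 7 h. From 7 to 14 h the mean of Xbp1 went from 55.4 to 76.7 CPM with BafA1 and from 48.9 to 38.3 CPM in DMSO. The Xbp1 call was lost in 17 fits that each left out 1 library, with no filter on low counts and in thinned libraries. The effect on Dnajb9 was larger at 22 h than at 14 h by 1.49 (log2), with 3 of 3 BafA1 libraries above the DMSO libraries at both times.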

How the results depend on the processing

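Over 32 alternatives no log2 change of the 10 genes that was called turned its direction, and at 22 h 9 genes were called in all of them and Edem1 in 28. The block gave each replicate number the same effect at all times, whereas the pairing was checked only within each time. With the replicate number as a block 1 of the 10 genes was called at 7 h. Between times 1 was called for 7 h minus 1 h, 4 for 14 h minus 7 h and 2 for 22 h minus 14 h. Over all genes 1555 were called at 7 h, against 903 without the block. Beyond these, Sel1l at 14 h and Herpud1 and Syvn1 in the test over times, the block changed no other call of the 10. For 14 h minus 7 h, 0 were called with no filter on low counts and 0 in thinned libraries. With no filter, 26 of all genes were called at 1 h. Other UPR signalling had 1 call at 7 h with a stricter filter, DESeq2 or the block. At 14 h it had 0 with no filter, 0 with DESeq2, 2 with limma-voom, 3 with the block and 3 in separate fits, and at 22 h 7 with the block. At 7 h ER chaperones had 0 with no filter and 2 with the block. At that time ER import and transport had 1 with DESeq2 and 1 with the block. The PERK and ATF4 branch had 5 there with no filter, 5 with DESeq2 and 7 with the block. The shares of all genes called at 7 h with no filter or with DESeq2 are not given beside these list counts. Leaving out each library gave 573 to 1015 calls over all genes at 7 h (573 without DMSO 7 h replicate 1), 5 to 9 of the 10 genes in the test over times, 0 to 1 for 14 h minus 7 h and 1 to 2 for 22 h minus 14 h. Other UPR signalling then had 0 to 1 at 7 h and 0 to 2 at 14 h, ER import and transport 0 to 1 at 7 h and the PERK and ATF4 branch 3 to 5 at 7 h. The cause of these shifts was not tested. The shallower DMSO libraries at 14 and 22 h limit the low-count genes most, Creld2 among them, with 9 counts in its lowest library.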
